A study of Mus musculus with 4 samples.

Results

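Classical monocytes of the tumour-bearing mouse lung were taken from 4 single-cell RNA libraries, 1 library per treatment. They were selected on their own transcripts. A barcode was kept as a cell with 500 or more unique molecular identifiers (UMIs, counted transcripts) from 300 or more genes, of which no more than 10% were mitochondrial. A kept cell entered with at least 3 UMIs of Lyz2 (lysozyme) and at least 4 in all of F13a1, Ly6c2, Ccr2, Fn1 and Chil3. It was left out with more than 1 UMI of the nonclassical monocyte genes Treml4, Cd300e and Adgre4, more than 2 of C1qa, C1qb and C1qc, at least 3% of its UMIs in S100a8 and S100a9, more than 1 UMI of Cd3d, Cd3e and Cd3g, more than 1 of Cd79a, or any of Flt3 and Zbtb46. This gave 554 classical monocytes among 14411 kept cells.

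The mice had received small cell lung cancer cells orthotopically into the lung. One group was given anti-PD-1 antibody (clone 29F.1A12, 200 µg per mouse, on Mondays, Wednesdays and Fridays), directed at a receptor that restrains T cells. Another group was given YKL-5-124 (10 mg/kg, every weekday), an inhibitor of the kinase CDK7, and the group called the combination was given both agents. The control group was given vehicle and isotype IgG. All 4 groups carried tumours, whole lungs were perfused and digested, and live cells were sorted on DAPI, so the cells are not from dissected tumours. No label gives the number, strain or age of the animals behind a library. With 1 library per treatment there is no replicate check and no test. Intervals below cover counting error only, and the 3 comparisons with control share 1 control library.

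Classical monocytes leave the bone marrow, enter inflamed tissue and tumours through the chemokine receptor CCR2, and can become macrophages or antigen-presenting cells there. Antigen presentation to helper T cells needs MHC class II molecules, whose α and β chains are loaded with peptide with the help of the invariant chain Cd74 and the H2-DM proteins. Class II genes are switched on together through short promoter elements, the X box and the Y box, by a factor complex that contains the coactivator Ciita.

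Class II genes carry the main difference in expression described below, so the promoters of 3 of them are shown. Each window holds 250 bases before and 50 bases after the transcription start, read on the gene's strand, from RefSeq for GRCm38.p6. Capitals mark the Y box element TGATTGG and the X box element AACNGATG, both searched on both strands. A match is a description of the letters and not a binding site.
H2-Aa, chr17:34287774-34288073, minus strand: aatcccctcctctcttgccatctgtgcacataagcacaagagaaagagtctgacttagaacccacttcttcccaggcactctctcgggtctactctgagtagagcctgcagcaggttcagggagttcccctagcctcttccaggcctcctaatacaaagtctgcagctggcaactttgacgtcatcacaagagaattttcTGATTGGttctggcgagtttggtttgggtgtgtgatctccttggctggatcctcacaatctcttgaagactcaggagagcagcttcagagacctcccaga
H2-Eb1, chr17:34305617-34305916, plus strand: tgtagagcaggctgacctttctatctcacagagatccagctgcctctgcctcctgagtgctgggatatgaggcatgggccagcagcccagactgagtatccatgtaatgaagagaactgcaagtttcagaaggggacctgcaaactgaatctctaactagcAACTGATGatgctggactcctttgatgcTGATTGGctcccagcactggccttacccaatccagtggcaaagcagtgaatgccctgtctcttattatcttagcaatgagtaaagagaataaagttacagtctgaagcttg
H2-DMb1, chr17:34152941-34153240, plus strand: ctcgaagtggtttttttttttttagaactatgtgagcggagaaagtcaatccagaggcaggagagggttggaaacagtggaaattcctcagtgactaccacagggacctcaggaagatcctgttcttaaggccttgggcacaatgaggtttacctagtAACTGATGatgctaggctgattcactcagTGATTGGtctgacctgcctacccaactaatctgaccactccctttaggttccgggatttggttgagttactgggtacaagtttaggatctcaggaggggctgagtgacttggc
The Y box element lay in 7.82% of all 32851 promoter windows in the table, the X box element in 2.32%, and both together in 0.186%. H2-Eb1 and H2-DMb1 held both elements, 1 of each. H2-Aa held the Y box element and no AACNGATG. Of the 7 class II presentation genes measured here, 5 had a window, and those of H2-DMa and Ctss held no Y box element.

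The libraries were of similar depth. They held 17329001 to 22950622 UMIs, and the classical monocytes had median depths of 4150.5, 4424.5 and 4206 UMIs in the anti-PD-1, YKL-5-124 and combination libraries, and 4265 UMIs in control. All 12 classical monocyte markers that the selection did not use were found in each library, among them Plac8, Ms4a4c and Csf1r, with a summed level of 9886 CPM (UMIs scaled to a common total per library), 12434 CPM and 11372 CPM in the anti-PD-1, YKL-5-124 and combination libraries, and 8787 CPM in control. Of the markers used, Ly6c2 had a UMI in 59.7%, 93.2% and 88.3% of cells in the anti-PD-1, YKL-5-124 and combination libraries and in 66.7% in control, which is a description of the choice. The label held in that these markers were present, but their sum did not set the cells apart from neighbouring gates: it was 7168 CPM, 8558 CPM and 9004 CPM in nonclassical monocytes and 6673 CPM, 10534 CPM and 8857 CPM in neutrophils in the anti-PD-1, YKL-5-124 and combination libraries, and 8955 CPM and 8167 CPM in those gates in control. In C1q-rich macrophages it lay between 1182 CPM and 3224 CPM. Just inside the limit, 44 cells had 4 or 5 UMIs of the 5 markers, and just outside it 56 otherwise passing cells had 2 or 3. Plac8 stood at 5031 CPM in the first set, 1165 CPM in the second and 5084 CPM in the 510 cells with 6 or more.

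Some members carried transcripts of genes that mark other cells. Cells with at least 3 UMIs of 9 alveolar macrophage markers were 3, 1 and 7 in the anti-PD-1, YKL-5-124 and combination libraries and 8 of 57 in control, where they held 22.8% of all UMIs. The summed level of these markers was 102 CPM, 7.75 CPM and 94.4 CPM in the anti-PD-1, YKL-5-124 and combination libraries, and 600.3 CPM in control, where all 9 had a UMI. Marco, which marks alveolar macrophages, was at 0 with YKL-5-124 and the combination, as were Ear1, Krt79 and Cidec. The list is not specific: in nonclassical monocytes Fabp4 alone of the 9 gave 353 CPM in control and 254 CPM with anti-PD-1. A count of these UMIs thus does not by itself show alveolar macrophage RNA. Tumour cell markers summed to 1005 CPM, 94.9 CPM and 237 CPM in the anti-PD-1, YKL-5-124 and combination libraries, and to 632 CPM in control. The deepest control cell had 31560 UMIs, 12.3% of the control total, with 149 tumour marker UMIs in it. Results that rest on such cells are given with and without them, an alternative chosen after seeing the data. Few members, 1, 2 and 5 in the anti-PD-1, YKL-5-124 and combination libraries and 2 in control, had a barcode that was also a cell in another library.

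Classical monocytes were more frequent in both libraries with YKL-5-124. They numbered 62 of 2736 cells with anti-PD-1, 222 of 4152 with YKL-5-124, 213 of 4042 with the combination and 57 of 3481 in control. The shares were 2.27% (95% exact binomial interval 1.74 to 2.90) with anti-PD-1, 5.35% (4.68 to 6.08) with YKL-5-124, 5.27% (4.60 to 6.0) with the combination and 1.64% (1.24 to 2.12) in control. The intervals of the 2 libraries with YKL-5-124 lay above both others and overlapped each other. The share was 3.27 times (2.43 to 4.45) that of control with YKL-5-124 and 3.22 times (2.39 to 4.39) with the combination. With anti-PD-1 the ratio was 1.38 (0.95 to 2.02), an interval that includes 1. The combination had 0.986 times (0.813 to 1.19) the share with YKL-5-124 and 2.33 times (1.75 to 3.14) that with anti-PD-1.

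The ratio to control differed among the other myeloid gates, and that of nonclassical monocytes overlapped the ratio of classical monocytes. Nonclassical monocytes, chosen by Treml4, Cd300e and Adgre4, were 1.06%, 1.95% and 2.60% of cells in the anti-PD-1, YKL-5-124 and combination libraries and 0.804% in control, a ratio to control of 2.43 (1.56 to 3.87) with YKL-5-124 and 3.23 (2.11 to 5.09) with the combination. C1q-rich macrophages stayed between 0.668% and 0.914% in the 4 libraries. Per C1q-rich macrophage there were 2.48 classical monocytes with anti-PD-1, 7.40 with YKL-5-124, 7.89 with the combination and 2.38 in control. Neutrophils reached 15.6% with YKL-5-124, against 2.56% with anti-PD-1, 3.64% with the combination and 2.21% in control, so YKL-5-124 alone had the fewest classical monocytes per neutrophil, 0.343, against 1.45 with the combination, 0.886 with anti-PD-1 and 0.740 in control. Among cells outside the neutrophil gate the share of classical monocytes was 2.33%, 6.36% and 5.47% in the anti-PD-1, YKL-5-124 and combination libraries, and 1.67% in control. Without cells holding alveolar macrophage markers the ratio to control was 3.77 with YKL-5-124 and 3.62 with the combination.

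**Figure D1:**
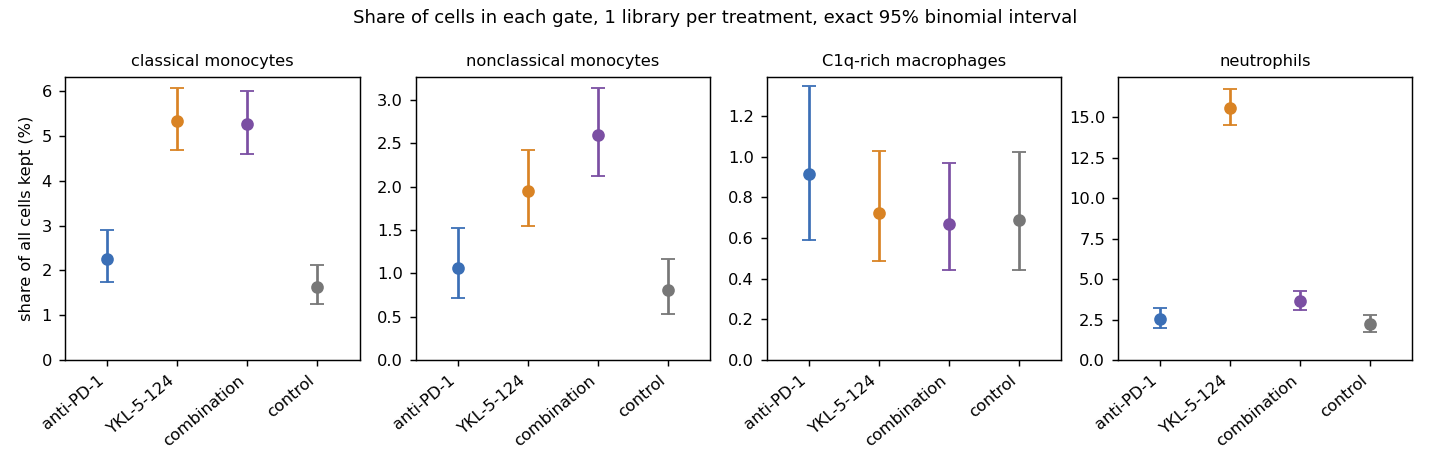
Share of kept cells in 4 gates (percent, each panel with its own axis from 0) for the 4 libraries, with exact 95% binomial intervals as bars. Classical monocytes sit at 5.35% and 5.27% in the libraries with YKL-5-124 and at 2.27% and 1.64% in the others, while C1q-rich macrophages stay between 0.668% and 0.914%.

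Gene levels were compared on UMIs summed over the classical monocytes of a library. Of 2461 genes with a mean of at least 50 CPM, a gene was called when log2 of (CPM + 10) differed by 2-fold or more, which is a rule of size. With YKL-5-124 over control 1.22% of genes were higher (30 genes) and 2.56% lower (63). With anti-PD-1 over control 1.87% were higher (46) and 2.56% lower (63). With the combination over control 1.5% were higher (37) and 1.34% lower (33). The combination had 1.02% of genes higher (25) and 0.406% lower (10) than YKL-5-124, and 1.14% higher and 1.14% lower (28 each) than anti-PD-1. The median log2 ratio of all genes lay between -0.04 and 0.05 in the 5 comparisons. Counts in both directions changed without the cells holding alveolar macrophage markers, when 48 genes were higher and 44 lower with YKL-5-124, 66 and 53 with anti-PD-1, and 52 and 14 with the combination, each over control.

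In UMIs summed over the cells, MHC class II genes were highest in classical monocytes with anti-PD-1 and lowest with YKL-5-124. The combination lay near control for the α and β chain genes in these sums, and values per cell follow below. H2-Aa, the class II α chain, was at 3851 CPM with anti-PD-1, 875 CPM with YKL-5-124, 1718 CPM with the combination and 1762 CPM in control. Its partner β chain H2-Ab1 was at 4988 CPM, 1251 CPM and 2491 CPM in the anti-PD-1, YKL-5-124 and combination libraries, and at 2261 CPM in control. The order was the same for H2-Eb1, the other β chain, at 2146 CPM with anti-PD-1, 389 CPM with YKL-5-124, 883 CPM with the combination and 838 CPM in control. Cd74, the invariant chain, stood at 15686 CPM, 4886 CPM and 7921 CPM in the anti-PD-1, YKL-5-124 and combination libraries, and at 10771 CPM in control. For Cd74 the combination lay below control, whereas for the chains it lay near or above it.

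Of the 7 measured class II presentation genes, 3 were lower and none higher with YKL-5-124 over control (background 2.56% lower), and their median log2 ratio was -0.85 against 0.02 for all genes. The called genes were Cd74 (0.454 times control, 0.433 to 0.475), H2-Eb1 (0.464 times, 0.393 to 0.551) and H2-Aa (0.497 times, 0.443 to 0.557). Without the richest cell of each library H2-Eb1 stood at a log2 ratio of -0.94, against -1.09 with all cells, and was no longer called. With anti-PD-1 over control 3 were higher and none lower (background 1.87% higher), with a median of 0.91 against -0.04 for all genes. H2-Eb1 was 2.56 times control (2.19 to 3.01), H2-Ab1 2.21 times (2.0 to 2.44) and H2-Aa 2.19 times (1.95 to 2.45). No member was called with the combination over control, with a median of 0.07. Over YKL-5-124 the combination had 1 member higher, H2-Eb1, at 2.27 times (2.01 to 2.56; background 1.02% higher), and a median of 0.70. Over anti-PD-1 it had 2 lower, H2-Aa at 0.446 times (0.412 to 0.483) and H2-Eb1 at 0.411 times (0.369 to 0.458), against a background of 1.14% lower, and a median of -0.98. The peptide-loading genes H2-DMa and H2-DMb1 were also highest with anti-PD-1, at 843 CPM and 616 CPM, and lowest with YKL-5-124, at 429 CPM and 259.5 CPM, without passing 2-fold over control. The protease Ctss, which trims the invariant chain, was almost level, at 3522 CPM, 3294 CPM and 3854 CPM in the anti-PD-1, YKL-5-124 and combination libraries, and 3551 CPM in control.

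The class II differences changed in size when cells with markers of another type were left out. Without the cells holding alveolar macrophage markers the list median was -1.19 with YKL-5-124, 0.72 with anti-PD-1 and -0.49 with the combination, each over control, and H2-Aa and H2-Ab1 with anti-PD-1 then stood at log2 ratios of 0.87 and 0.86, below the 2-fold limit. Without the cells holding tumour markers the medians were -1.05, 0.65 and -0.20 in the same order. The sign with the combination thus depended on these few cells, while those with YKL-5-124 and anti-PD-1 did not turn. Free RNA, read from barcodes with 10 to 100 UMIs, held H2-Aa at 1001 CPM, 912 CPM and 953 CPM in the anti-PD-1, YKL-5-124 and combination libraries, and at 835 CPM in control, a range narrower than that in the cells. Its part in the levels was not tested.

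**Figure D2:**
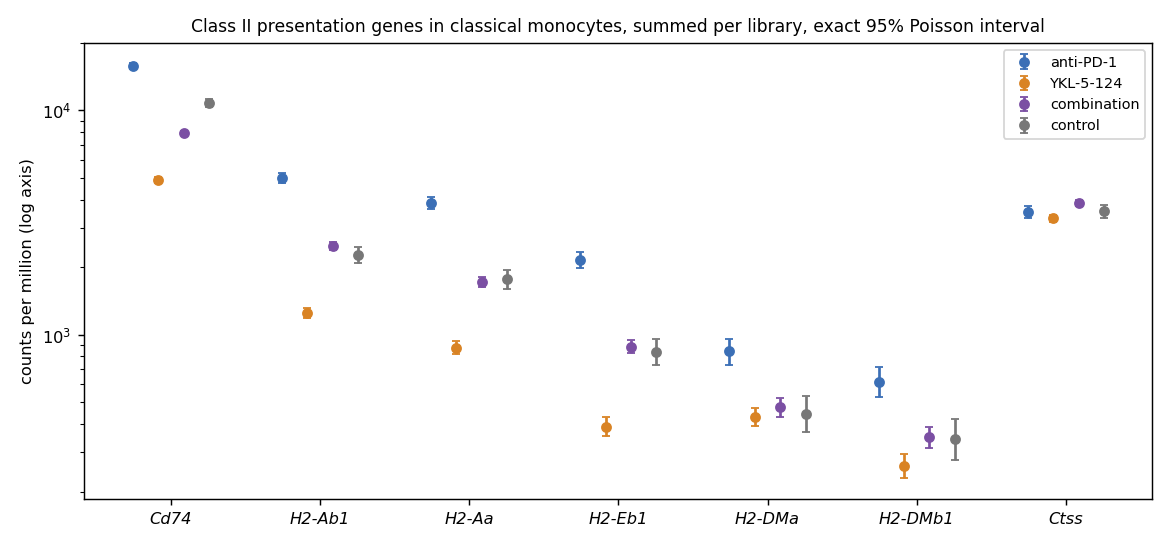
Levels of 7 class II presentation genes (CPM, log axis) in the classical monocytes of the 4 libraries, with exact 95% Poisson intervals. H2-Aa, H2-Ab1, H2-Eb1 and Cd74 are highest with anti-PD-1 (H2-Aa 3851 CPM) and lowest with YKL-5-124 (875 CPM), and Ctss is almost level.

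Within every library class II RNA was unevenly spread over the cells. After thinning each cell to 1500 UMIs, which left out 3 cells with anti-PD-1, 0 with YKL-5-124, 4 with the combination and 1 in control, the median number of UMIs of H2-Aa, H2-Ab1, H2-Eb1 and Cd74 was 3 with anti-PD-1, 0 with YKL-5-124, 1 with the combination and 2 in control. The upper quartiles were 48.5, 3.75 and 7 UMIs in the anti-PD-1, YKL-5-124 and combination libraries and 25.2 in control, and the highest cells had 243, 205, 181 and 159. At least 3 of these UMIs were found in 52.5% of cells (39.1 to 65.7) with anti-PD-1, 26.1% (20.5 to 32.4) with YKL-5-124, 33.5% (27.1 to 40.3) with the combination and 44.6% (31.3 to 58.5) in control. Unthinned, the share was 61.3%, 36.9% and 50.2% in the anti-PD-1, YKL-5-124 and combination libraries and 59.6% in control. Only the intervals of YKL-5-124 and anti-PD-1 lay fully apart; that of YKL-5-124 overlapped the control interval. In B cells, which express class II throughout, the share was 97.7% to 99.3%. The 5 cells with most class II UMIs held 50.4% of them with anti-PD-1, 41.1% with YKL-5-124, 39.4% with the combination and 57.2% in control. Without those 5 cells the summed level was 15125 CPM, 4489 CPM and 8358 CPM in the anti-PD-1, YKL-5-124 and combination libraries, and 7480 CPM in control, so anti-PD-1 stayed highest and YKL-5-124 lowest.

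**Figure D3:**
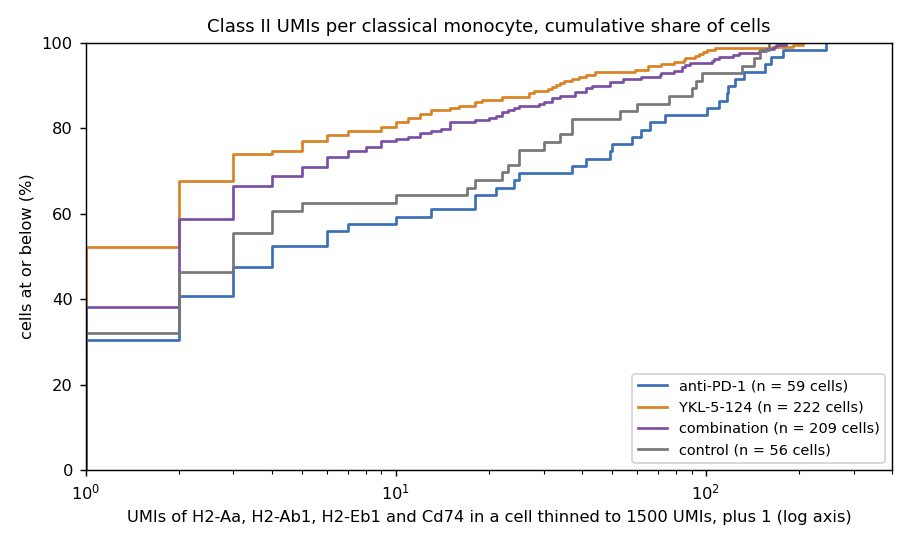
Cumulative share of classical monocytes (percent) by their number of class II UMIs plus 1 after thinning to 1500 UMIs (log axis), 1 line per library. The YKL-5-124 line runs highest, with a median of 0 UMIs, and the anti-PD-1 line lowest, with a median of 3.

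The cells with little and with much class II RNA differed in some other monocyte genes, in the same direction in each library for Hp, Mgst1 and Cd209a. Cells with 0 to 2 class II UMIs were 47.5% with anti-PD-1, 73.9% with YKL-5-124, 66.5% with the combination and 55.4% in control. Next to that limit, 4 cells had 2 UMIs and 3 had 3 with anti-PD-1, 14 and 2 with YKL-5-124, 16 and 5 with the combination, and 5 and 3 in control. Hp, which encodes the haemoglobin scavenger haptoglobin, had 305 CPM in cells with 20 or more class II UMIs and 1678 CPM in those with 0 to 2 with anti-PD-1. The same values were 476 CPM and 2037 CPM with YKL-5-124, 358 CPM and 1524 CPM with the combination, and 268 CPM and 829 CPM in control. Mgst1, a microsomal glutathione transferase, had 148 CPM in cells with 20 or more and 1014 CPM in those with 0 to 2 with anti-PD-1, 336 CPM and 1429 CPM with YKL-5-124, 181 CPM and 1193 CPM with the combination, and 388 CPM and 842 CPM in control. Cd209a, a lectin of monocyte-derived dendritic cells, ran the other way, at 139 CPM, 63.0 CPM and 127 CPM in cells with 20 or more in the anti-PD-1, YKL-5-124 and combination libraries and 201 CPM in control, against 0, 19.9, 9.77 and 6.38 CPM in cells with 0 to 2. F13a1 and Chil3, which the selection used, were at lower levels in cells with 20 or more in each library, whereas Ccr2 and Plac8 had no common direction. Ccr2, also used in the selection, was at 767 CPM in cells with 20 or more and 645 CPM in those with 0 to 2 with anti-PD-1, 560.4 CPM and 605 CPM with YKL-5-124, 436 CPM and 459 CPM with the combination, and 616 CPM and 498 CPM in control. Plac8 was likewise at 3058 CPM and 4758 CPM with anti-PD-1, 5569 CPM and 4852 CPM with YKL-5-124, 4096 CPM and 5912 CPM with the combination, and 4299 CPM and 3598 CPM in control. These ranges of a per-cell count are not cell types.

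Class II levels took another order in the neighbouring myeloid cells. The 4 class II genes summed to 26672 CPM, 7402 CPM and 13012 CPM in classical monocytes in the anti-PD-1, YKL-5-124 and combination libraries, and to 15632 CPM in control. In nonclassical monocytes the same sum was 5018 CPM, 11522 CPM and 10816 CPM in the anti-PD-1, YKL-5-124 and combination libraries, and 27865 CPM in control, so anti-PD-1 was lowest there and control highest. In C1q-rich macrophages it was 47608 CPM, 69875 CPM and 57817 CPM in the anti-PD-1, YKL-5-124 and combination libraries, and 86945 CPM in control. The ratio of YKL-5-124 to control was 0.474 (0.456 to 0.492) in classical monocytes, 0.413 (0.395 to 0.433) in nonclassical monocytes and 0.804 (0.781 to 0.828) in C1q-rich macrophages. Without the 5 richest cells, nonclassical monocytes stood at 7969 CPM with YKL-5-124 and 10082 CPM in control. C1q-rich macrophages then stood at 39321 CPM and 59318 CPM. YKL-5-124 stayed below control, but the sizes of these ratios, and their order among the classes, depended on few cells. Nonclassical monocytes were few, 29 with anti-PD-1 and 28 in control, and their 5 richest cells held 66.6% and 71.9% of the class II UMIs.

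**Figure D4:**
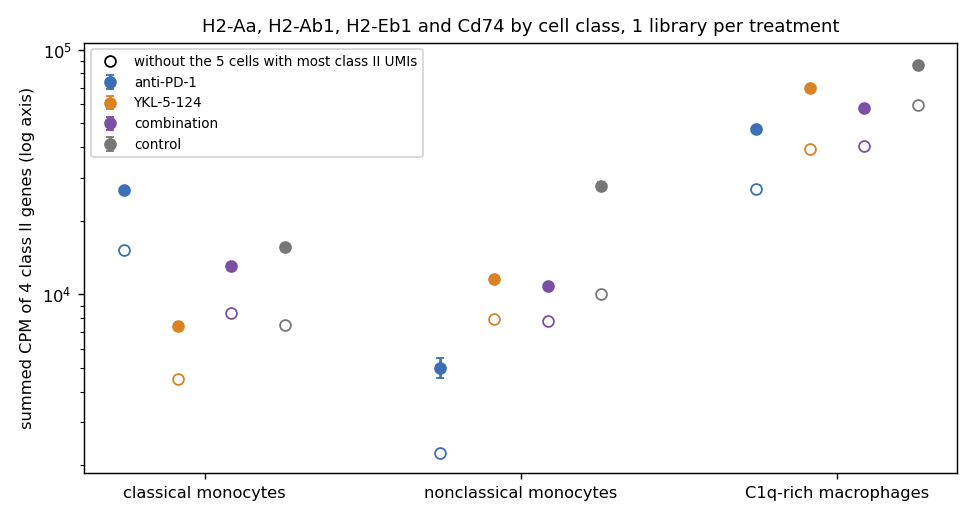
Summed level of H2-Aa, H2-Ab1, H2-Eb1 and Cd74 (CPM, log axis) in 3 myeloid classes of the 4 libraries. Filled points hold all cells with exact 95% Poisson intervals, open points leave out the 5 cells richest in class II UMIs. Anti-PD-1 is highest in classical monocytes (26672 CPM) and lowest in nonclassical monocytes (5018 CPM).

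Among the genes with the highest ratios of YKL-5-124 to control were Hp, Rgcc, F10, Pla2g7 and Vcan. Hp was at 983 CPM with anti-PD-1, 1698 CPM with YKL-5-124, 1148 CPM with the combination and 647 CPM in control, and its ratio of YKL-5-124 to control was 2.62 (2.24 to 3.09). Free RNA held Hp in the same order, at 122 CPM, 365 CPM and 181 CPM in the anti-PD-1, YKL-5-124 and combination libraries, and 101 CPM in control, and neutrophils were most frequent with YKL-5-124, as given above. The part of free RNA in the Hp levels was not tested. Rgcc, a regulator of cell cycle kinases, was at 423 CPM with YKL-5-124 and 262 CPM with the combination, against 90.7 CPM with anti-PD-1 and 121 CPM in control. It was 3.50 times control (2.43 to 5.22) with YKL-5-124 and 2.17 times (1.49 to 3.26) with the combination, and both libraries with the inhibitor lay above both without. F10, coagulation factor X, was at 139.8 CPM, 270.2 CPM and 189 CPM in the anti-PD-1, YKL-5-124 and combination libraries, and at 62.4 CPM in control, so control was lowest for this gene. Its ratios to control were 2.24 (1.22 to 4.32) with anti-PD-1, 4.33 (2.62 to 7.68) with YKL-5-124 and 3.03 (1.81 to 5.41) with the combination.

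Pla2g7, the platelet-activating factor acetylhydrolase, was at 461 CPM, 621 CPM and 398 CPM in the anti-PD-1, YKL-5-124 and combination libraries, and at 218 CPM in control, 2.84 times control (2.16 to 3.81) with YKL-5-124. Vcan, the matrix proteoglycan versican and a classical monocyte marker, was at 68.0 CPM, 145 CPM and 66.4 CPM in the anti-PD-1, YKL-5-124 and combination libraries, and at 46.8 CPM in control. Only the YKL-5-124 library stood apart for Vcan, at 3.11 times control (1.73 to 6.14), and the combination had 0.457 times (0.336 to 0.616) the level with YKL-5-124. The other genes highest with YKL-5-124 over control by the naming rule were Ldhb, a lactate dehydrogenase subunit, at 2.93 times (1.54 to 6.27), Plp2 at 2.58 times (1.35 to 5.55) and the translation initiation factor Eif3f at 2.53 times (1.53 to 4.44). Eif3f was higher in all 3 treated libraries, at 253 CPM, 168 CPM and 315 CPM in the anti-PD-1, YKL-5-124 and combination libraries, against 66.3 CPM in control. Trem3, a monocyte receptor, was 3.73 times control (1.65 to 10.4) on 90 UMIs with YKL-5-124 and 6 in control.

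Of these genes, 5 were also compared among the cells with 0 to 2 class II UMIs. There Hp was 2.02 times control (1.61 to 2.55) with anti-PD-1, 2.46 times (2.05 to 2.96) with YKL-5-124 and 1.84 times (1.53 to 2.22) with the combination. Pla2g7 was 2.82 times (1.63 to 5.03), 4.56 times (2.95 to 7.43) and 3.05 times (1.95 to 5.01) control in the anti-PD-1, YKL-5-124 and combination libraries. F10 was 2.65 times (1.26 to 5.87), 3.70 times (2.08 to 7.28) and 2.19 times (1.20 to 4.38) control in the same order, so for these 3 genes each treated library lay above control. Rgcc was 1.81 times (0.889 to 3.73), 4.85 times (2.95 to 8.58) and 2.82 times (1.69 to 5.05) control, and Vcan 1.32 times (0.530 to 3.28), 2.23 times (1.23 to 4.43) and 1.19 times (0.631 to 2.44), with intervals that include 1 for Rgcc with anti-PD-1 and for Vcan with anti-PD-1 and with the combination.

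Both libraries with YKL-5-124 lay above both without it by 1.5-fold or more for 0.284% of genes (7), and below for 0.488% (12). The 7 were Rgcc, Trem2, Morc3, B4galnt1, Osm, Emilin2 and Plp2. Osm, the cytokine oncostatin M, was at 439 CPM and 471 CPM with YKL-5-124 and the combination, against 283 CPM with anti-PD-1 and 257 CPM in control. Trem2, a lipid-sensing receptor, was at 103 CPM and 104 CPM with YKL-5-124 and the combination, against 52.9 CPM with anti-PD-1 and 50.7 CPM in control. The 12 below were Lpl, Egr1, Hmox1, Il18, Gm42418, Hp1bp3, Cd209a, Bex2, Usp50, Ear2, Selenom and Cd24a. Ear2, a ribonuclease, was at 117 CPM with YKL-5-124 and 117 CPM with the combination, against 189 CPM with anti-PD-1 and 308 CPM in control. The genes above or below beyond Rgcc, Plp2, Lpl, Egr1, Hmox1, Il18, Gm42418 and Cd209a were named after their values were seen.

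Several, but not all, of the genes lowest with YKL-5-124 over control fell short of 2-fold when cells with alveolar macrophage markers were left out. Cd9, a tetraspanin, was at 419.5 CPM, 129 CPM and 334 CPM in the anti-PD-1, YKL-5-124 and combination libraries, and at 1076 CPM in control, 0.120 times control (0.0966 to 0.148) with YKL-5-124. Its log2 ratio fell short of the limit at -0.86 when cells with alveolar macrophage markers were left out, against -2.97 with all cells. Abcg1, a cholesterol exporter, had -2.47 with all cells and -0.60 without them. Egr1, an immediate early transcription factor, had -2.04 and -0.50, Gadd45g, a stress response gene, -1.94 and -0.83, and Il18, an inflammasome cytokine, -1.68 and -0.71. Lpl, the lipoprotein lipase, stayed called, at 75.6 CPM, 10.7 CPM and 23.9 CPM in the anti-PD-1, YKL-5-124 and combination libraries, and 222 CPM in control, with log2 ratios of -3.49 and -2.35 for YKL-5-124. G0s2, an inhibitor of fat breakdown, had -2.04 and -2.29. Hist1h1e stood at -2.09 over control but 33 of its 38 control UMIs were in 1 cell, and its ratio turned to 0.10 without that cell and the top cell with YKL-5-124. Gm42418, annotated over a ribosomal RNA repeat, had 99 of its 141 control UMIs in 1 cell.

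**Figure D5:**
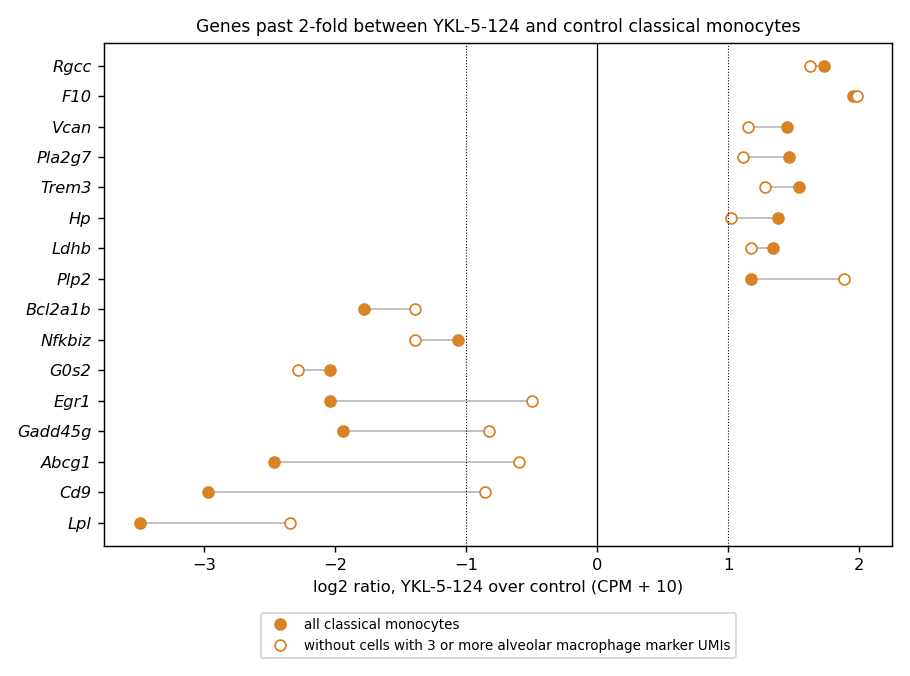
Log2 ratio of CPM + 10, YKL-5-124 over control, for 16 called genes, with all classical monocytes (filled) and without cells holding at least 3 alveolar macrophage marker UMIs (open). Dotted lines mark 2-fold. Rgcc, F10 and Lpl stay past 2-fold, whereas Cd9 moves to -0.86 and Abcg1 to -0.60.

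Some feedback genes of NF-kB, the transcription factor of inflammatory signalling, were lower with YKL-5-124. Of 16 measured, 4 were lower and none higher over control (background 2.56% lower), with a list median of -0.65 against 0.02 for all genes. The anti-apoptotic gene Bcl2a1b was at 234 CPM with anti-PD-1, 40.7 CPM with YKL-5-124, 228 CPM with the combination and 164 CPM in control, so YKL-5-124 alone stood apart. It was 0.248 times control (0.158 to 0.390) with YKL-5-124, and the combination had 5.61 times (4.02 to 8.0) the level with YKL-5-124. Its near-identical neighbour Bcl2a1a was 0.227 times control (0.119 to 0.429) with YKL-5-124, and the reads of the Bcl2a1 copies may be split between them. Nfkbiz was at 90.7 CPM, 37.8 CPM and 102 CPM in the anti-PD-1, YKL-5-124 and combination libraries, and at 89.7 CPM in control. Gadd45b was 0.414 times control (0.234 to 0.748) with YKL-5-124. Without the richest cell of each library Nfkbiz stood at a log2 ratio of -0.81, against -1.06 with all cells, and Gadd45b at -0.83, against -1.07, so only Bcl2a1a and Bcl2a1b of the 4 stayed called. With the combination over YKL-5-124, 4 of the 16 were higher (background 1.02%) and none lower, with a median of 0.44. Of these 4, Bcl2a1a went to 0.98, against 1.14 with all cells, and Bcl2a1d to just under 2-fold without the richest cell of each library. With all control cells or without those holding alveolar macrophage markers the YKL-5-124 median was -0.65 and -0.71.

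Inflammatory cytokines and chemokines divided by gene. Of 14 measured, 2 were higher and 2 lower with YKL-5-124, 3 higher and 1 lower with anti-PD-1, and 3 higher and 1 lower with the combination, each over control. The background was 1.22% higher and 2.56% lower with YKL-5-124, 1.87% and 2.56% with anti-PD-1, and 1.5% and 1.34% with the combination. Il1b, the most abundant cytokine given here, was at 1976 CPM, 1044 CPM and 1460 CPM in the anti-PD-1, YKL-5-124 and combination libraries, and at 1442 CPM in control, all within 2-fold of control. Ccl2, the ligand of CCR2, was at 253 CPM, 227 CPM and 370.3 CPM in the anti-PD-1, YKL-5-124 and combination libraries, and at 643 CPM in control, with ratios to control of 0.394 (0.292 to 0.526) for anti-PD-1 and 0.352 (0.287 to 0.433) for YKL-5-124. Ccl3, a neutrophil and monocyte attractant, was at 341 CPM with the combination, 3.49 times (2.78 to 4.41) the level with YKL-5-124 and 3.23 times (2.19 to 4.93) that with anti-PD-1, against 199 CPM in control. Other chemokine values came from few cells. Ccl24 had 367 UMIs with the combination, 121 of them in 1 cell, and 1 UMI in control. Ccl7 had 191 UMIs with the combination and 0 in control, a level at least 16.9-fold higher against a floor of 3 counts in the control library, and only 4.69% of combination cells had a UMI. With YKL-5-124 it had 71 UMIs and was no longer called over control without the richest cell. Mmp12, a macrophage elastase, had 415 UMIs in 4.69% of combination cells, 168 of them in 1 cell, and 0 in control. The receptor gene of CCL2 itself was used in the selection.

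Among the genes with the highest ratios of anti-PD-1 to control were Batf3 and Clec10a. Batf3, a transcription factor of dendritic cells, was at 109.6 CPM with anti-PD-1, 25.2 CPM with YKL-5-124, 51.9 CPM with the combination and 27.3 CPM in control, 4.02 times control (1.72 to 10.9). Clec10a, a lectin of dendritic cells and macrophages, was at 106 CPM with anti-PD-1 and 27.3 CPM in control, 3.88 times (1.66 to 10.5). Both rest on 7 UMIs in control. Among the cells with 0 to 2 class II UMIs, Clec10a was 1.45 times control (0.105 to 19.9), on 2 UMIs with anti-PD-1 and 2 in control. Batf3 was 3.85 times control (0.925 to 22.6) in those cells, and both intervals include 1. In cells with 20 or more class II UMIs, Clec10a was at 166 CPM with anti-PD-1 and 67.0 CPM in control. Il1r2, the decoy receptor of interleukin 1, was 4.09 times control (1.95 to 9.63) and the glycolytic enzyme gene Tpi1 2.83 times (1.76 to 4.70). AW112010 was 5.76 times control (3.48 to 10.1), with 63 of its 107 UMIs in 1 cell, and Tmcc1 was 2.77 times (1.48 to 5.51). Among the lowest were Spp1, osteopontin, with 2 UMIs with anti-PD-1 and 52 in control (0.0373 times, 0.00440 to 0.142), Cdc42ep3 (0.208 times, 0.0703 to 0.511) and the octamer-binding factor gene Pou2f2 (0.334 times, 0.190 to 0.564). Of 52 Spp1 UMIs in control, 30 were in 1 cell. Stmn1, also among the lowest, had 183 of its 202 control UMIs in the deepest control cell. The combination had lower levels than anti-PD-1 of Clec10a (0.441 times, 0.269 to 0.734), Cd81 (0.284 times, 0.163 to 0.496), AW112010 (0.313 times, 0.239 to 0.410), Ifitm1 (0.225 times, 0.130 to 0.385) and the AP-1 gene Fosb (0.290 times, 0.206 to 0.408). Without the richest cell of each library 3 of these 5 fell short of 2-fold, at log2 ratios of -0.73 for Ifitm1, -0.71 for AW112010 and -0.75 for Clec10a, against -1.83, -1.60 and -1.03 with all cells.

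Among genes with at least 100 CPM in either library, 30 UMIs in both together and a UMI in at least 10% of the cells of the higher library, which leaves out Ccl7, Ccl24 and Mmp12, 0610012G03Rik had the highest ratio of the combination to control. It was at 90.7 CPM, 74.6 CPM and 116 CPM in the anti-PD-1, YKL-5-124 and combination libraries, and at 11.7 CPM in control, where it had 3 UMIs, for a ratio of 9.93 (3.31 to 48.9). Eif3f was 4.76 times control (2.92 to 8.28), Scand1 3.39 times (1.84 to 6.94), Vapa, a membrane contact protein, 3.34 times (1.70 to 7.49), the RNA-binding protein gene Khdrbs1 3.31 times (1.68 to 7.43), Ly6i 3.19 times (1.77 to 6.32) and Sap30, a histone deacetylase subunit, 2.66 times (1.59 to 4.77). Hmox1, haem oxygenase, was at 197 CPM, 93.0 CPM and 63.3 CPM in the anti-PD-1, YKL-5-124 and combination libraries, and at 335 CPM in control, but 69 of 86 control UMIs were in 1 cell. Bex3 and Wfdc21, also among the lowest, had 30 of 36 and 10 of 37 control UMIs in 1 cell. The combination had 0.487 times (0.439 to 0.540) the Slpi of YKL-5-124, a protease inhibitor, and 2.16 times (1.72 to 2.72) its Slfn5. Trem1 and Fosb were named as lowest in that comparison and missed the 2-fold limit. Over anti-PD-1 its highest genes were Ccl3, Rgcc at 2.89 times (1.90 to 4.60), Eif4e, the cap-binding factor, at 2.69 times (1.40 to 5.78) and Ahsa1, a chaperone partner, at 2.61 times (1.5 to 4.90).

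Granule genes of marrow precursors came mostly from single cells with YKL-5-124. Of 9 measured genes of the early granule list, 5 were higher over control and none lower (background 1.22% higher), with a median of 1.38: Elane, Mpo, Prtn3, Ctsg and Hp. Hp is also 1 of the classical monocyte markers that the selection did not use, and the median is its own log2 ratio. It had a UMI in 185 of the 204 YKL-5-124 cells with fewer than 3 UMIs of Elane, Mpo, Prtn3 and Ctsg together. Elane, neutrophil elastase, had 516 UMIs with YKL-5-124, of which 486 were in 1 cell, against 0 with anti-PD-1, 2 with the combination and 1 in control. Mpo, myeloperoxidase, had 278 of 284 UMIs in 1 YKL-5-124 cell and none in the other libraries. Prtn3, proteinase 3, was spread further, with a UMI in 30.6% of cells with YKL-5-124, against 16.1% with anti-PD-1, 10.3% with the combination and 5.26% in control, and 90 of its 238 UMIs in 1 cell. After thinning, 2 of 222 cells held 3 or more granule UMIs (Elane, Mpo, Prtn3, Ctsg) with YKL-5-124, a share of 0.901% (0.109 to 3.22). None of 59 cells with anti-PD-1, 209 with the combination and 56 in control did. Unthinned, 18 of 222 cells reached 3 UMIs with YKL-5-124, against 1 of 62 with anti-PD-1, 1 of 213 with the combination and 0 of 57 in control, where a count of 0 allows a share of up to 5.26%. Retnla, a macrophage alternative activation gene, had 309 of 310 anti-PD-1 UMIs in 1 cell, and Arg1, arginase, 40 of 48.

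Shares of cells with proliferation genes had overlapping intervals in the 4 libraries. Top2a, a mitotic topoisomerase, had 8, 22 and 34 UMIs in the anti-PD-1, YKL-5-124 and combination libraries, against 49 in control, all of them in the deepest cell, and Mki67 had 19 of 21 control UMIs in 1 cell. At least 3 UMIs of the G2 and mitosis list were found in 18.6% (9.69 to 30.9) of thinned cells with anti-PD-1, 15.3% (10.8 to 20.7) with YKL-5-124, 12.9% (8.69 to 18.2) with the combination and 10.7% (4.03 to 21.9) in control, intervals that all overlap. Thinned B cells had shares of 8.36% to 17.2% in the 4 libraries, so this share did not set classical monocytes apart from them. Unthinned, these shares were 54.8%, 67.1% and 58.7% in the anti-PD-1, YKL-5-124 and combination libraries and 49.1% in control. Unthinned B cells, which were less deep, had 17.3% to 24.3%. Mki67 had a UMI in few members. Among those with fewer than 3 granule UMIs it was found in 3 of 61 with anti-PD-1 and 4 of 204 with YKL-5-124. With the combination it was found in 5 of 212 and in control in 3 of 57.

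Most genes of the other groups stayed within 2-fold. None of 14 MHC class I presentation genes and none of 8 checkpoint ligand and costimulation genes passed 2-fold in any of the 5 comparisons. The background was 0.406% to 2.56% of all genes in either direction, so counts of 0 in lists this short lie near it. Of 27 interferon-stimulated genes 1 was lower with YKL-5-124, 1 lower with anti-PD-1 and none called with the combination over control, with medians of -0.31, -0.22 and 0.07. These counts lie near the background of 2.56% lower with either agent alone. Without the cells holding alveolar macrophage markers the medians were -0.64, -0.48 and -0.17, so the sign with the combination turned. With the combination over YKL-5-124, 26 of the 27 ratios were positive, with a median of 0.41 against -0.02 for all genes. There was 1 call (background 1.02% higher and 0.406% lower), and the share of all genes with a positive ratio was not computed. Of 10 heat shock genes 1 was lower with YKL-5-124 and 2 with anti-PD-1 (background 2.56% lower in both), among them Hsp90aa1 with both, at 231 CPM with anti-PD-1 and 233 CPM with YKL-5-124, against 314 CPM with the combination and 596 CPM in control. Of 20 monocyte fate factors and growth factor receptors, Runx1 was lower in all 3 treated libraries, at 45.3 CPM, 50.4 CPM and 47.7 CPM in the anti-PD-1, YKL-5-124 and combination libraries, against 129 CPM in control. Its log2 ratio was -1.24, -0.93 and -0.97 in that order without the cells holding alveolar macrophage markers, so anti-PD-1 alone stayed past 2-fold. Csf1r, the growth factor receptor of the lineage, was at 427 CPM, 392 CPM and 509 CPM in the anti-PD-1, YKL-5-124 and combination libraries, and 433 CPM in control, and Nr4a1, which nonclassical monocytes need, was between 560.1 CPM and 688 CPM. Cdk7, the target of the inhibitor, had 3, 14 and 17 UMIs in the anti-PD-1, YKL-5-124 and combination libraries and 4 in control, too few to compare. Cd274, the ligand of PD-1, had 9, 6 and 14 UMIs in the anti-PD-1, YKL-5-124 and combination libraries and 4 in control.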

How the data were processed

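The authors deposited 1 matrix of raw UMI counts per gene and barcode for each library, whole numbers with no normalization and not restricted to cells. Libraries were made with the 10x 3' v2 kit, per the labels' protocols. The matrices came from bcl2fastq and Cell Ranger, per the submitters' processing notes, and the matrix header names software version 3.0.0. Those notes list hg19, a human build, but all 31053 feature IDs are mouse Ensembl IDs, and no source names the annotation release.

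Cells and members were chosen by the limits stated in the report. Counts were summed over the members of each library and scaled to CPM. Mitochondrial, ribosomal protein, haemoglobin, antigen receptor and Y-linked genes, Xist, 35 symbols carried by more than 1 row and the genes of the selection were left out of the comparison of sizes. Shares have exact binomial intervals, levels exact Poisson intervals and ratios exact conditional binomial intervals, at 95%. No p-value was made. Cell thinning drew UMIs without replacement to 1500 per cell. Scrublet in Scanpy 1.11.5 marked under 0.5% of each library by its automatic threshold, so doublets were left in and the highest scores (0.8% per 1000 cells) were removed as an alternative; they held 2, 5 and 5 members in the anti-PD-1, YKL-5-124 and combination libraries, and 0 in control.

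Members and lists were chosen with earlier results of these data known. Named genes are the 8 highest and 8 lowest log2 ratios of each treated library over control, and 4 and 4 of the combination over each agent, with at least 100 CPM in either library, 30 UMIs in both together and a UMI in at least 10% of the cells of the higher library, up to 5 members of each described list, and a set of immune genes. Genes of other cell types' marker lists were left out of the ranking. Some genes that the rule picks are not reported here. Python 3.11.15, NumPy 2.4.6, SciPy 1.17.1 and pandas 2.3.3 were used. The ratio step was tested on simulated counts. Of the genes in the lists, 3 were not found in the feature table. Alternatives changed the pseudocount, the minimum level, the fold, the scaling, the weight of cells, the UMI minimum, the marker limits and the cells left out.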

Additional observations from a re-analysis of the deposited data

Results flagged for a closer look

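H2-Aa, H2-Ab1 and H2-Eb1 moved in opposite directions in 2 kinds of monocyte with anti-PD-1 over control, by more than 2-fold each way with all cells. The log2 ratio of H2-Aa was 1.12 in classical monocytes and -3.52 in nonclassical monocytes. For H2-Ab1 it was 1.14 and -3.09, and for H2-Eb1 1.35 and -3.99, in the same order. Without cells holding alveolar macrophage markers H2-Aa and H2-Ab1 in classical monocytes stood at 0.87 and 0.86, below 2-fold. The difference between the classes was not tested, since each class has 1 library per treatment. The nonclassical values rest on 29 anti-PD-1 cells, 5 of which held at least 20 class II UMIs, and on 28 control cells, 14 of which did. NK cell markers summed to 1954 CPM in the nonclassical monocytes with anti-PD-1, against 71.4 CPM with YKL-5-124, 93.8 CPM with the combination and 76.3 CPM in control. Their median depth was 2103 UMIs with anti-PD-1 and 3364 UMIs in control. The part of these cells in the class II values was not tested.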

How the results depend on the processing

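All 45 recomputed ratios of shares of classical monocytes stayed within the interval of the value they replace. The median log2 ratio of the class II genes moved with each cell given the same weight, to 0.59 with anti-PD-1 and -0.35 with the combination over control and -1.08 with the combination over anti-PD-1. Without cells holding alveolar macrophage markers it was -1.19 with YKL-5-124 and -0.49 with the combination over control, and -1.19 with the combination over anti-PD-1. Without cells holding tumour markers it was -1.05, 0.65 and -0.20 with YKL-5-124, anti-PD-1 and the combination over control. These 2 settings were chosen after seeing the data. Over all lists 91 medians moved and 1269 did not.

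Counts of genes past the limit followed the minimum level and the fold, since both set how many can pass. In the order YKL-5-124, anti-PD-1 and combination over control, then combination over YKL-5-124 and over anti-PD-1, the counts higher and lower were 74 and 163, 118 and 179, 78 and 104, 50 and 12, and 85 and 55 at a minimum of 25 CPM. At 100 CPM they were 8 and 25, 17 and 18, 11 and 11, 15 and 3, and 13 and 13. With no minimum they were 201 and 570, 433 and 791, 222 and 444, 91 and 26, and 268 and 197. At 1.5-fold they were 179 and 195, 174 and 270, 143 and 146, 84 and 35, and 166 and 111. At 3-fold they were 10 and 19, 13 and 11, 11 and 12, 10 and 4, and 6 and 7. Genes with both YKL-5-124 libraries above and below both others numbered 26 and 42 at 25 CPM, 4 and 4 at 100 CPM, 110 and 146 with no minimum, and 1 and 3 at a margin of 2-fold. A pseudocount of 20 CPM left 7 below, and scaling by the median ratio 4 above. Totals without mitochondrial and ribosomal protein genes gave 12 above, 20 below and 53 lower with the combination over control. With each cell given the same weight 4 lay above and 6 were lower with the combination over YKL-5-124, and 6 likewise without cells holding granule genes. Without cells holding alveolar macrophage markers 48 were higher with YKL-5-124 and 14 lower with the combination over control, and 16 higher with the combination over YKL-5-124.

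Of 103 single gene ratios, 76 stayed past 2-fold without cells holding alveolar macrophage markers, 86 without the cell richest in the gene, and 90 to 103 under the other settings. A few turned round. Elane with YKL-5-124 over control was -0.47 without granule cells. Elane is among the genes that define granule cells, and all 516 of its YKL-5-124 UMIs were in them. The removal thus fixed this change in advance, so it cannot serve as a check on Elane. Cd9 with the combination over control was 0.12 without cells holding alveolar macrophage markers. Hist1h1e with YKL-5-124 over control was 0.082 without those cells, 0.18 without cells holding tumour markers and 0.10 without its richest cell, and Hmox1 was 0.10 without its richest cell. No paired analysis was possible because each treatment has 1 library and no test was run. With 57 and 62 members in control and anti-PD-1, genes under about 100 CPM rest on few UMIs, and no interval covers differences between animals.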
